A study of Bos taurus with 16 samples.

Results

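The 8 genes described here are TNFSF10, FAS, FADD, CASP8, CFLAR, RIPK1 and MLKL, which act between a death ligand and a caspase or membrane rupture, and CASP4, a caspase of a separate branch. They were chosen by symbol, and all 8 were found among the 18705 genes of the table. The cells were primary mixed luteal steroidogenic cells of cattle (Bos taurus), taken from corpora lutea on days 10 to 12 of the estrous cycle and kept in medium with LH at 10 ng/mL. Cultures received PGF2A at 10 ng/mL together with IFNT at 1 ng/mL (IFNT+PGF2A), IFNT alone or PGF2A alone at the same doses, or no treatment (CON). The cultures, 4 in each group, were collected after 24 hours, and each one pooled triplicate wells before total RNA was sequenced. IFNT is interferon tau, the pregnancy signal of the ruminant conceptus, and PGF2A is prostaglandin F2 alpha, the uterine hormone that triggers regression of the corpus luteum. The cultures of each group carry the numbers 1 to 4, with no word in the labels on separate animals or cultures behind them, so p-values reflect only how these samples scatter, which may be technical.

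In the death receptor pathway a ligand such as TRAIL, the product of TNFSF10, or FAS ligand binds a receptor on the cell surface. The receptor gathers the adaptor FADD, which recruits the initiator caspase CASP8, and CFLAR, a catalytically inactive relative of CASP8 that limits its activation. RIPK1 is a kinase that passes the signal on to survival genes, to CASP8 or, where CASP8 is blocked, to RIPK3 and the pore-forming protein MLKL, a death called necroptosis. CASP4 belongs to another branch: in human cells it senses bacterial lipopolysaccharide in the cytosol and cleaves gasdermin D, which opens the membrane in pyroptosis. Regression of the corpus luteum involves loss of steroid output and then death of luteal cells, and FAS signalling is among the death pathways studied in this tissue.

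Between 23786067 and 25906276 reads per library were assigned to genes. Levels are normalized counts, meaning reads divided by 1 size factor per library, and they are not corrected for transcript length. The 4 libraries of number 4 stood apart in every group: on the second principal component, with 17.2% of the variance, they lay at 29.09 to 70.11, against -29.26 to 1.04 for the other 12. Their summed pericyte and smooth muscle markers were 222552 to 318130 normalized counts, against 103253 to 136179 in the other 12. Several results that rest on number 4 are therefore given with and without it. All 7 interferon-response genes checked rose with IFNT, with a median log2 change of 6.67.

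IFNT raised the level of 7 of the 8 genes above CON, from 1.63-fold for FADD to 18.08-fold for TNFSF10, and did so for all 8 genes when PGF2A was present. The exception without PGF2A was CFLAR, with a limma adjusted p of 0.12. With the sample number as a block its adjusted p was 0.025 and all 8 genes passed, beside 21.3% of tested genes. In the limma test with Benjamini-Hochberg adjustment, 13.1% of the 14122 genes tested were higher with IFNT than in CON, and 12.3% were higher in IFNT+PGF2A than in PGF2A. The median log2 change of the 8 genes was 1.18 for IFNT against CON, beside -0.04 for all tested genes, and 1.32 for IFNT+PGF2A against PGF2A, beside -0.01. PGF2A changed none of the 8 past the threshold, alone or on top of IFNT. Since these are bulk samples, a change in the number of cells of a type and a change in RNA per cell cannot be told apart.

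**Figure D1:**
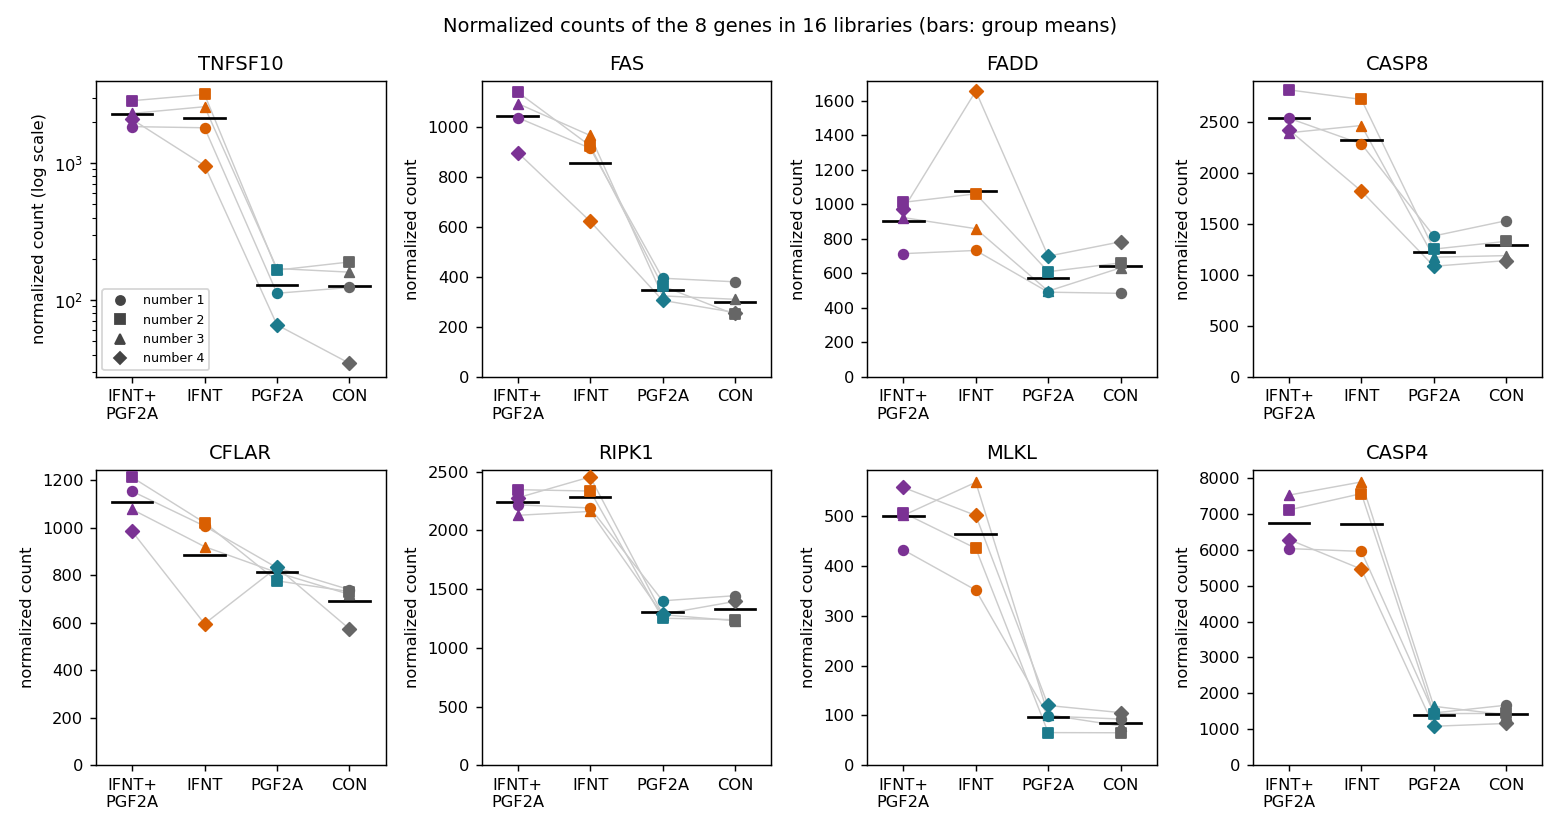
Normalized counts (y axis, log scale for TNFSF10 only) of the 8 genes in the 16 libraries, by treatment (x axis). Points are single cultures, their shape gives the sample number, grey lines join cultures of 1 number and bars are group means; for TNFSF10, FAS, CASP8, RIPK1, MLKL and CASP4 the cultures with IFNT lie above all cultures without it.

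TNFSF10, the ligand, changed most. It had 1809, 3166, 2577 and 959 normalized counts in IFNT cultures 1 to 4, against 124, 189.6, 159.9 and 34.6 in CON cultures 1 to 4. Number 4 was the lowest culture of both groups, and the groups were still far apart. The log2 change was 4.18 (SE 0.48), an 18.08-fold difference, with a limma adjusted p of 9.6e-06, and it placed TNFSF10 at rank 98 of the 14122 genes by size of increase. Within the 4 numbers the log2 differences were 3.87, 4.06, 4.01 and 4.77. With PGF2A in the medium the gene had 1845, 2851, 2304 and 2084 normalized counts in IFNT+PGF2A cultures, against 112, 165, 169.8 and 65.9 in PGF2A cultures. That is a log2 change of 4.22 (SE 0.48; limma adjusted p = 9.3e-06), or 18.60-fold, close to the change without PGF2A.

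FAS, the receptor of FAS ligand, about tripled. Its normalized counts were 915, 925, 967 and 623 in IFNT cultures, against 380.2, 249, 310.2 and 257 in CON cultures. The lowest IFNT culture, number 4, was above the highest CON culture. The log2 change was 1.52 (SE 0.16; limma adjusted p = 3.8e-06), or 2.86-fold. In IFNT+PGF2A cultures the counts were 1038, 1140.3, 1095 and 898, against 395, 363, 324 and 306 in PGF2A cultures. The groups were again well separated, by a log2 change of 1.59 (SE 0.16; limma adjusted p = 2.6e-06), or 3.01-fold.

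FADD, the adaptor under these receptors, rose less and with more scatter. It had 733, 1061, 859 and 1657 normalized counts in IFNT cultures, against 484, 660.3, 632 and 783 in CON cultures. Number 4 was the highest culture in both groups, and the groups overlapped, because the highest CON value lay above the lowest IFNT value. The log2 change was 0.70 (SE 0.22; limma adjusted p = 0.03), or 1.63-fold, and FADD was higher with IFNT in 4 of 4 numbers. The call was lost without number 2 (adjusted p = 0.14), without number 3 (0.1) and when only the IFNT and CON groups were fitted (0.099). Without number 4 FADD was called in this comparison. In IFNT+PGF2A cultures FADD had 714, 1012, 923 and 972 normalized counts, against 490.5, 609, 497 and 699 in PGF2A cultures, and here the groups did not overlap. That change was 0.66 on the log2 scale (SE 0.22; limma adjusted p = 0.045). It missed the threshold without number 2 (0.2) or number 3 (0.25), without the filter on low values (0.054) and without the intensity trend (0.055). With the sample number as a block FADD passed in both comparisons, with limma adjusted p-values of 0.00031 without PGF2A and 0.00053 with it.

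CASP8, the initiator caspase, had 2286, 2724, 2468 and 1823 normalized counts in IFNT cultures, against 1532, 1329.9, 1189 and 1141 in CON cultures. Every IFNT culture was above every CON culture. The increase was 1.78-fold (log2 change 0.83, SE 0.13; limma adjusted p = 0.00015). With PGF2A present the counts were 2539, 2818, 2396 and 2425 in IFNT+PGF2A cultures, against 1382, 1253, 1174 and 1085 in PGF2A cultures, a log2 change of 1.06 (SE 0.13; limma adjusted p = 1.5e-05), or 2.08-fold.

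CFLAR, the restraint on CASP8, moved least of the 8 in response to IFNT. It had 1007, 1021, 920.4 and 596 normalized counts in IFNT cultures, against 739, 731, 719 and 574 in CON cultures. Cultures 1 to 3 were each above all CON cultures, while IFNT culture 4 was below 3 of the 4 CON cultures. The log2 change was 0.33 (SE 0.15; 95% interval 0.02 to 0.65), with a limma adjusted p of 0.12. With the sample number as a block the adjusted p was 0.025, and without number 4 the change was 0.43 with an adjusted p of 0.00086. In the authors' deposited table the same comparison had a log2 fold change of 0.36 and an adjusted p of 0.246.

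With PGF2A present CFLAR did pass the threshold. It had 1153, 1212, 1077 and 984 normalized counts in IFNT+PGF2A cultures, against 832, 777, 812 and 833 in PGF2A cultures, with no overlap between the groups. The log2 change was 0.44 (SE 0.15; limma adjusted p = 0.044), or 1.36-fold. The call was lost without number 1 (0.16), number 2 (0.23) or number 3 (0.2), without the filter on low values (0.054) and without the intensity trend (0.054). It held with the sample number as a block (limma adjusted p = 0.0058, 95% interval 0.20 to 0.68). Whether the change differed from the one without PGF2A was tested as an interaction, given below, and did not pass. CFLAR and CASP8 are near neighbours in the RefSeq annotation of assembly ARS-UCD2.0, with 2 protein-coding genes between them. Strand use in counting is not given in the sources used here.

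Since CFLAR limits CASP8, their ratio was computed in each library, as a description with no test. IFNT+PGF2A cultures held 45.4, 43.0, 45.0 and 40.6 CFLAR counts per 100 CASP8 counts, and IFNT cultures 44.0, 37.5, 37.3 and 32.7. PGF2A cultures held 60.2, 62.0, 69.1 and 76.8, and CON cultures 48.3, 55.0, 60.5 and 50.4. All 8 cultures with IFNT had a lower ratio than any culture without it, and within every number the ratio was higher with PGF2A than without, in both IFNT backgrounds. The means were 43.5 ± 2.2 in IFNT+PGF2A, 37.9 ± 4.7 in IFNT, 67.0 ± 7.6 in PGF2A and 53.5 ± 5.4 in CON (SD, n = 4 each). Because counts grow with transcript length, the ratio compares groups and does not give the relative number of molecules.

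**Figure D2:**
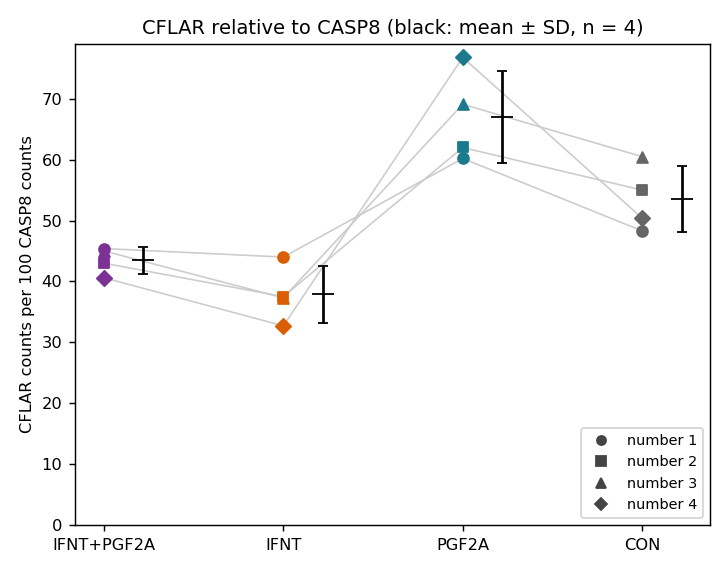
CFLAR counts per 100 CASP8 counts (y axis) in each library by treatment (x axis). Coloured points are cultures, their shape gives the sample number, grey lines join cultures of 1 number and black bars are the mean ± SD of 4; the 8 cultures with IFNT lie at 32.7 to 45.4 and the 8 without it at 48.3 to 76.8.

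RIPK1 showed the tightest response. It had 2191, 2335, 2161 and 2455 normalized counts in IFNT cultures, against 1444, 1240.2, 1231 and 1396 in CON cultures. IFNT thus raised it 1.72-fold (log2 change 0.78, SE 0.08; limma adjusted p = 1.7e-06). In IFNT+PGF2A cultures the counts were 2217, 2346, 2128 and 2277, against 1401, 1252, 1282 and 1287 in PGF2A cultures. The log2 change there was also 0.78 (SE 0.08; limma adjusted p = 2.1e-06). RIPK1 had the smallest standard error of the 8 genes in both comparisons, and number 4 differed from the mean of numbers 1 to 3 by at most 0.14 on the log2 scale in any group.

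MLKL, the executioner of necroptosis, rose more than any of the 8 except TNFSF10. It had 351, 435, 567 and 501 normalized counts in IFNT cultures, against 92.9, 65.4, 79.0 and 106 in CON cultures. The difference was 5.38-fold (log2 change 2.43, SE 0.20; limma adjusted p = 2.5e-07). With PGF2A present MLKL had 432, 506, 501 and 557 normalized counts in IFNT+PGF2A cultures, against 98.7, 65.7, 101.3 and 120.0 in PGF2A cultures, a log2 change of 2.39 (SE 0.20; limma adjusted p = 3.4e-07). Number 4 was the highest of the CON and of the PGF2A cultures, and no group with IFNT came near a group without it.

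CASP4, the caspase of the pyroptosis branch, responded about as strongly as MLKL. Its normalized counts were 5949, 7555, 7879 and 5454 in IFNT cultures, against 1673, 1446, 1404 and 1166 in CON cultures, a log2 change of 2.23 (SE 0.15; limma adjusted p = 3.0e-08), or 4.70-fold. In IFNT+PGF2A cultures the counts were 6027, 7103, 7514 and 6279, against 1458, 1439.6, 1643 and 1088 in PGF2A cultures, a log2 change of 2.27 (SE 0.15; limma adjusted p = 3.2e-08), or 4.82-fold. The RefSeq gene table gives CASP13 as another name of this bovine gene.

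Each of the 8 genes was higher in 4 of 4 numbers for IFNT against CON, and again for IFNT+PGF2A against PGF2A. The 8 genes were read from the same cultures, so their differences are not separate observations. The share of all tested genes with this pattern was not computed. The groups did not overlap for 6 of the 8 genes in the first comparison, where 12.1% of tested genes were higher without overlap, and for 8 of 8 in the second, where 15.7% were. The 8 genes had the same order of increase in both comparisons. From largest to smallest it ran TNFSF10, MLKL, CASP4, FAS, CASP8, RIPK1, FADD and CFLAR. Neighbours in that order were not all apart: the intervals of MLKL (2.01 to 2.85) and CASP4 (1.91 to 2.55) overlapped for IFNT against CON. In the same comparison those of CASP8 (0.57 to 1.10), RIPK1 (0.62 to 0.95), FADD (0.23 to 1.17) and CFLAR (0.02 to 0.65) overlapped one another.

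**Figure D3:**
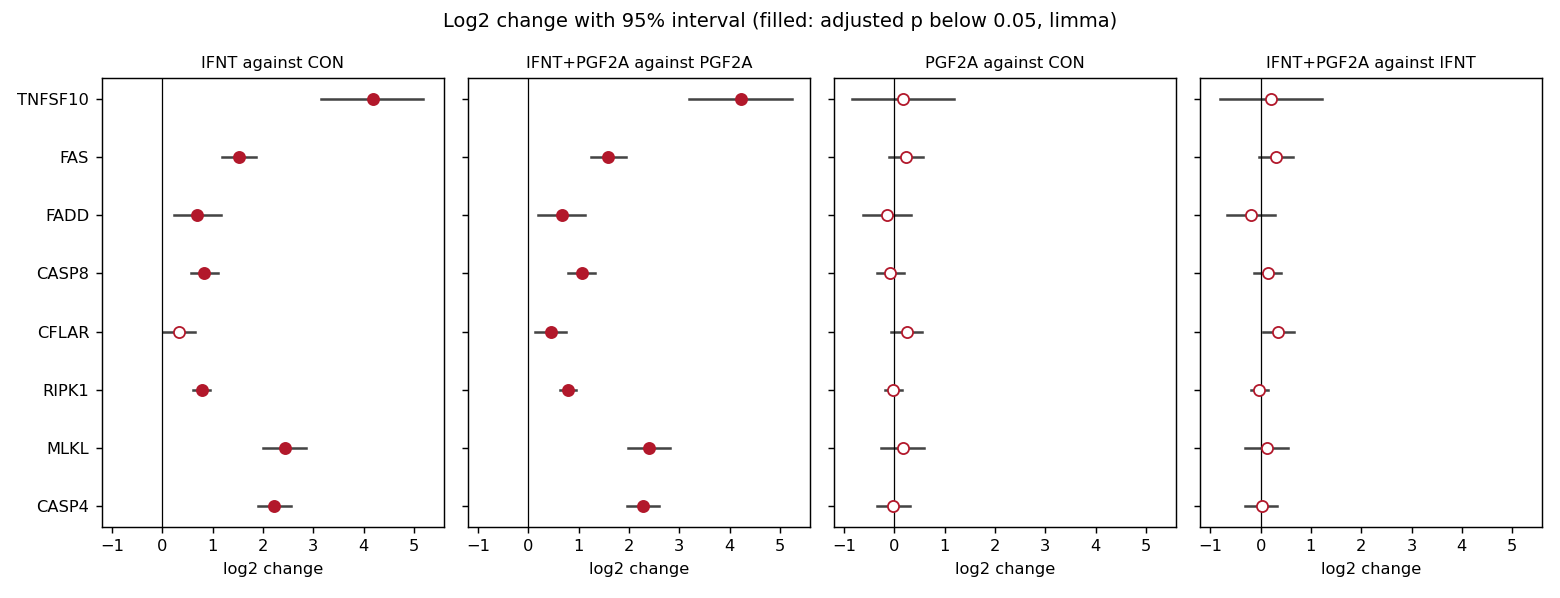
Log2 change (x axis) of the 8 genes in 4 comparisons, with 95% intervals from limma; filled points have an adjusted p below 0.05. With IFNT, changes reach 4.18 and 4.22 for TNFSF10, while both comparisons for PGF2A hold open points only, between -0.19 and 0.35.

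Cells given both agents were also set against CON, a comparison that shares its CON cultures with the one for IFNT alone. TNFSF10 was 20.89-fold higher in IFNT+PGF2A than in CON, and FAS 3.52-fold higher (limma adjusted p = 6.0e-06 and 6.2e-07). CFLAR rose 1.60-fold (log2 change 0.68, SE 0.15; limma adjusted p = 0.0032), with 4 of 4 numbers between 0.58 and 0.78. CASP4 (2.25 on the log2 scale), MLKL (2.55), CASP8 (0.98) and RIPK1 (0.76) rose as well, with limma adjusted p-values of 3.5e-05 or lower. FADD had a log2 change of 0.51 (SE 0.22; limma adjusted p = 0.12). It passed with the sample number as a block (0.0033), without number 4 (0.033) and when only these 2 groups were fitted (0.046). In all, 7 of the 8 genes rose, beside 12.4% of all tested genes, and 8 of 8 with the block, beside 21.1%.

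PGF2A alone moved none of the 8 past the threshold: 0 were called, with all limma adjusted p-values at 1, and the background was 0% of the tested genes in this fit. At an unadjusted p below 0.05 limma had 155 of the 14122 genes. With the sample number as a block 0.163% of genes were called and still 0 of the 8. On the recovered reads edgeR called 0 genes and DESeq2 called 2, also with 0 of the 8. CFLAR came nearest, with a log2 change of 0.24 (95% interval -0.07 to 0.55; unadjusted p = 0.12, and 0.046 with the block). It was the 1 gene of the 8 whose PGF2A and CON cultures did not overlap, which held for 0.687% of tested genes in the upward direction. Its same-number differences were 0.17, 0.09, 0.17 and 0.54, the last from number 4.

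The intervals show how much change these data leave room for. RIPK1 had the narrowest, with a PGF2A change of -0.02 on the log2 scale (95% interval -0.19 to 0.14), and CASP8 followed with -0.08 (-0.35 to 0.19), below CON in 4 of 4 numbers. CASP4 had -0.02 (-0.34 to 0.30), FAS 0.23 (-0.11 to 0.57), MLKL 0.16 (-0.26 to 0.58) and FADD -0.15 (-0.62 to 0.32). FAS and MLKL, like CFLAR, were above CON in 4 of 4 numbers. The share of all tested genes with 4 of 4 numbers in 1 direction was not computed. For TNFSF10 the interval was wide, -0.85 to 1.18 around 0.17, and -0.38 to 0.71 with the block. Its same-number differences were -0.14, -0.20, 0.09 and 0.92, so the positive mean came from number 4, and without that number the change was -0.08.

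On top of IFNT, PGF2A again changed 0 of the 8 genes, with limma adjusted p-values of 1, beside 0.00708% of tested genes. At an unadjusted p below 0.05 limma had 356 genes, and CFLAR was among them with a log2 change of 0.35 (95% interval 0.04 to 0.66; unadjusted p = 0.031). The block gave it an unadjusted p of 0.0071 and an adjusted p of 0.23, in a fit that called 0.701% of genes. In no gene of the 8 did the IFNT+PGF2A cultures all lie above the IFNT cultures (0.807% of tested genes). CFLAR was higher in IFNT+PGF2A than in IFNT in 4 of 4 numbers, by 0.20, 0.25, 0.23 and 0.72. FAS was too, by 0.18, 0.30, 0.18 and 0.53 (log2 change 0.30, 95% interval -0.04 to 0.64). How many of all tested genes were higher in 4 of 4 numbers was not computed. In the authors' deposited table the main effect of PGF2A on CFLAR had a p of 0.0332 and an adjusted p of 1.

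Number 4 set the size of several of these differences. TNFSF10 differed by 0.03, -0.15 and -0.16 between IFNT+PGF2A and IFNT in numbers 1 to 3 and by 1.12 in number 4, and FADD by -0.04, -0.07 and 0.10 against -0.77. Without number 4 the TNFSF10 change was -0.10 and the CFLAR change 0.22. In IFNT culture 4, TNFSF10, FAS, CASP8, CFLAR and CASP4 were each the lowest of the group, and FADD and RIPK1 the highest. The pericyte and smooth muscle marker sum of that culture was the highest of the 16 libraries, at 318130 normalized counts. What the number stands for is not given in the labels, and the part of these markers in the differences was not tested.

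**Figure D4:**
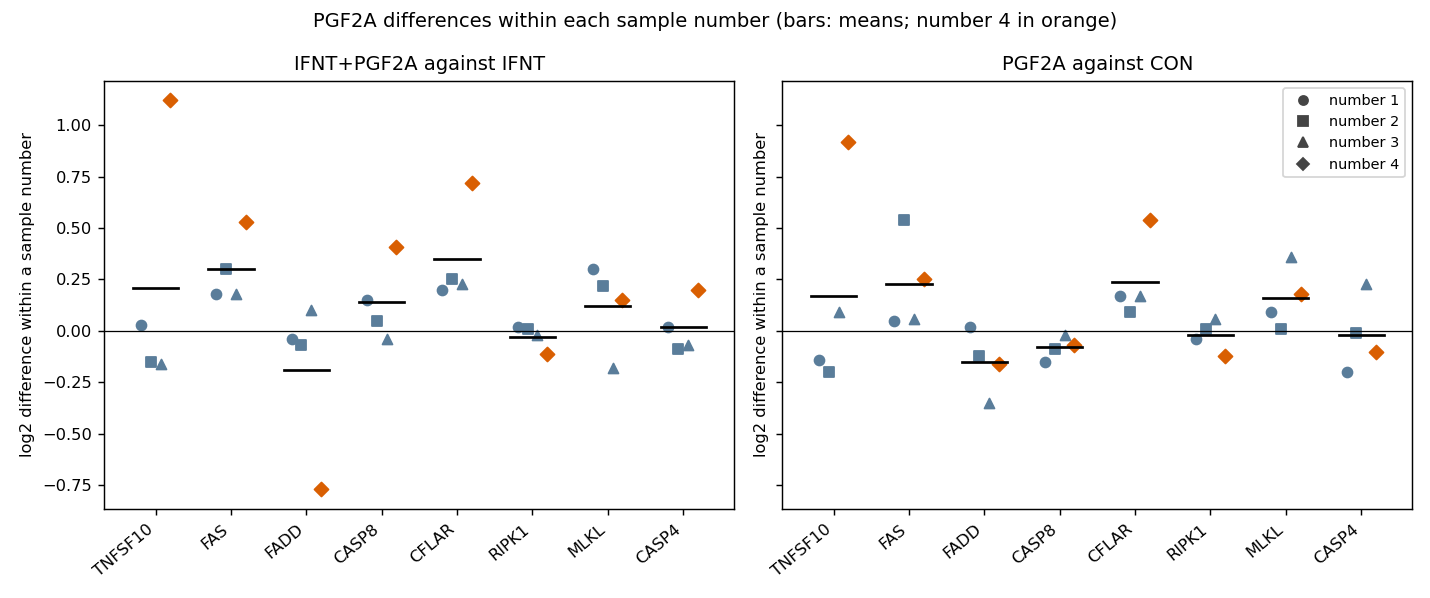
Log2 difference within a sample number (y axis) for the 8 genes (x axis), IFNT+PGF2A against IFNT on the left and PGF2A against CON on the right. Points are the 4 numbers, with number 4 in orange, and bars are their means; for TNFSF10 number 4 lies at 1.12 and 0.92 while the other numbers lie between -0.20 and 0.09.

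The interaction asked whether the IFNT change differed with and without PGF2A. It was not called for any of the 8 genes, all at a limma adjusted p of 1, nor for any other gene (0% called; 40 genes at an unadjusted p below 0.05, and 0 calls by edgeR and by DESeq2 on the recovered reads). RIPK1 had the narrowest interval, -0.23 to 0.23 around -0.00. CASP8 had an estimate of 0.22 (95% interval -0.15 to 0.60), or 0.14 without number 4, and CFLAR stood at 0.11 (-0.33 to 0.55). The interval of TNFSF10 was the widest, -1.40 to 1.48 around 0.04, and narrowed to -0.73 to 0.81 with the sample number as a block.

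Other genes of the same pathways showed where the 8 sit. In the background of all tested genes, 13.1% were higher and 10.9% lower with IFNT than in CON (21.3% and 22.1% with the block), and 12.3% were higher and 8.54% lower in IFNT+PGF2A than in PGF2A (20.9% and 19.5% with the block). Of the necroptosis and pyroptosis partners, 6 of 11 tested genes were higher with IFNT than in CON and 0 were lower, with a median log2 change of 0.76. RIPK3, the kinase that activates MLKL, averaged 716 ± 150 normalized counts in IFNT cultures and 133 ± 23.7 in CON cultures (SD, n = 4 each; log2 change 2.42, limma adjusted p = 1.1e-06). ZBP1, a nucleic acid sensor that can engage RIPK3, averaged 14007 ± 1066 and 228 ± 126 in the same groups (6.09; adjusted p = 5.9e-07). GSDMD, which encodes gasdermin D, rose by 1.34 (adjusted p = 9.3e-06) and PYCARD, the inflammasome adaptor, by 3.08 (adjusted p = 1.4e-07). With PGF2A present 5 of the 11 were higher and 0 lower, with RIPK3 at 2.18 and ZBP1 at 5.29. The block raised the counts to 9 of 11 without PGF2A and 8 of 11 with it.

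The genes that control RIPK1 by ubiquitin or by kinases had 5 of 16 higher and 0 lower with IFNT than in CON, at a median log2 change of 0.09. RBCK1 and RNF31, which encode subunits of the linear ubiquitin ligase, rose by 1.74 (SE 0.09; limma adjusted p = 3.3e-09) and 1.00 (SE 0.10; adjusted p = 2.3e-06). TNFAIP3, which encodes the ubiquitin-editing enzyme A20, rose by 1.05 (adjusted p = 0.0093, and 0.083 without number 2). Of the caspase inhibitors and their antagonists, 3 of 9 were higher and 1 lower. XAF1, an antagonist of the inhibitor XIAP, averaged 3431 ± 480 normalized counts in IFNT cultures and 84.4 ± 33.2 in CON cultures (SD, n = 4 each; adjusted p = 1.4e-07). BIRC3, a ubiquitin ligase that protects cells from TNF-induced death, rose by 1.08 (adjusted p = 0.00057), and HTRA2, a mitochondrial protease, fell by 0.48 (adjusted p = 0.003). With PGF2A present these lists had 4 higher and 0 lower and 3 higher and 1 lower.

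Of the other receptors tested few were called, and of the ligands none without the block. Among 12 receptors listed, 7 were found by symbol. TNFRSF10A, TNFRSF10B, TNFRSF10C, TNFRSF10D and TNFRSF14 were not found under these symbols, so the counts do not cover them. TNFRSF1A, the main receptor of TNF, rose by 0.49 on the log2 scale with IFNT (SE 0.10; limma adjusted p = 0.0022), the 1 of 6 tested receptors that was called, with 2 under the block. With PGF2A present 2 of 6 were called: TNFRSF1A rose by 0.50 (adjusted p = 0.0022, and 0.05 without number 3) and TNFRSF1B, the second receptor of TNF, by 0.53 (adjusted p = 0.014, but 0.13 without number 1 and 0.055 without number 2). Among 7 ligands, 3 passed the filter, and 0 were called in either comparison. The block called 1 in each, named here after its values were seen: LTB for IFNT against CON (log2 change 0.54; adjusted p = 0.13, and 0.035 with the block) and TNFSF15 for IFNT+PGF2A against PGF2A (1.46; adjusted p = 0.25, and 0.016 with the block). FASLG, the ligand of FAS, had normalized counts of 0.95 to 11.43 over all 16 libraries and TNF 0 to 13.35, so neither was tested. Among 13 adaptors, 1 was higher and 2 lower with IFNT, or 3 and 4 with the block. DAXX, a FAS-binding protein with roles in the nucleus, rose by 1.77 (SE 0.11; adjusted p = 1.8e-08), and TRAF3 fell by 0.49 (adjusted p = 0.0017).

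In the list of mitochondrial and nuclear execution genes, 3 of 12 were higher and 2 lower with IFNT than in CON, or 3 and 5 with the block, at a median log2 change of -0.14. BID, which links CASP8 to mitochondria, rose by 0.88 (SE 0.18; limma adjusted p = 0.0018). AIFM1, a mitochondrial flavoprotein, rose by 0.62 (adjusted p = 0.0011), and DFFB, the caspase-activated nuclease, by 0.85 (adjusted p = 0.002). The 2 lower genes were PARP1 (log2 change -0.26, limma adjusted p = 0.013) and CYCS (-0.34, adjusted p = 0.016). With PGF2A present 3 were higher and 1 lower. None of the genes in these 7 lists was called for PGF2A against CON, for IFNT+PGF2A against IFNT or for the interaction, with or without the block.

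**Figure D5:**
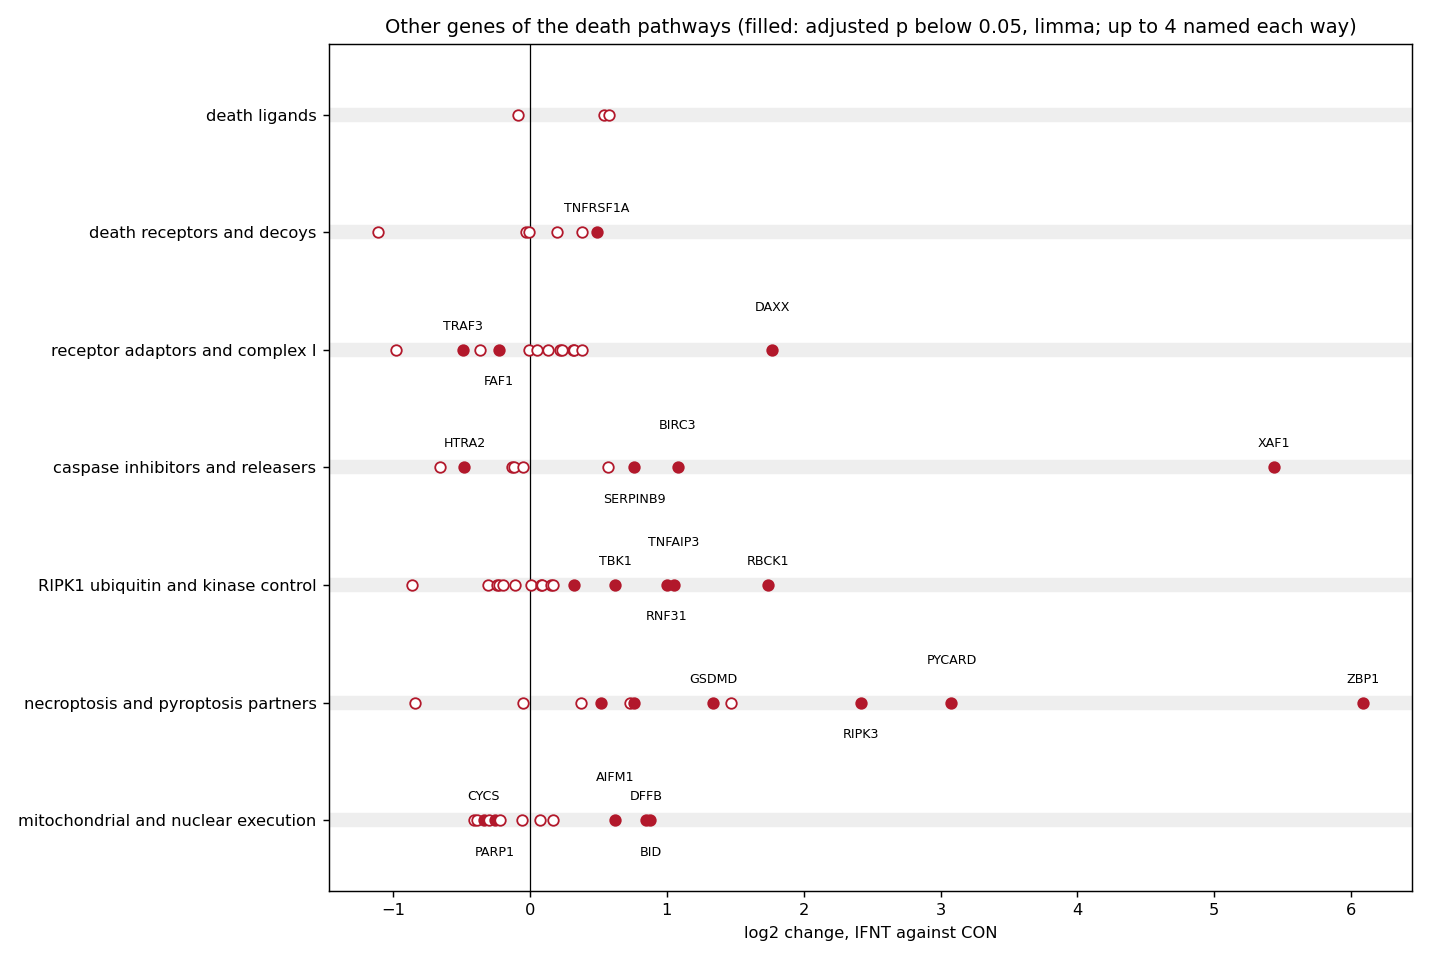
Log2 change for IFNT against CON (x axis) of the tested genes in 7 pathway lists (rows). Each circle is 1 gene and filled circles have a limma adjusted p below 0.05; the furthest right are ZBP1 at 6.09, XAF1 at 5.44 and PYCARD at 3.08.

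Markers of other cells moved in part with IFNT. Summed endothelial markers were 10430.2 to 29568 normalized counts in IFNT cultures and 9009 to 22246 in CON cultures; 2 of 8 rose, or 6 of 8 with the block. With PGF2A they were 11438 to 25299 in IFNT+PGF2A cultures and 8823 to 20301 in PGF2A cultures, again with 2 of 8 called (7 with the block). Macrophage markers summed to 593.9 to 846 in IFNT cultures and 496 to 674 in CON cultures, with 1 of 7 called higher (4 higher and 1 lower with the block). T and NK cell markers summed to 62.6 to 91.4 and 38.3 to 68.0 in the same groups, with 0 of 2 tested called (1 with the block), and B cell markers to 17.4 to 19.7 and 4.7 to 11.2, with 1 of 1 called. No marker of these lists was at 0 in all libraries, and 1 T and NK cell marker was at 0 in all PGF2A cultures. Luteal steroidogenic markers summed to 86477 to 120909 in IFNT cultures and 93802 to 147353 in CON cultures, with 0 higher and 2 lower of 8 (1 and 5 with the block). Fibroblast markers summed to 648049 to 1230618 in IFNT cultures and 841425 to 1368501 in CON cultures, with 1 of 8 higher and 1 lower (1 and 5 with the block). Of 8 markers for pericytes or smooth muscle, 1 was higher (2 higher and 1 lower with the block). The part of these markers in the results for the 8 genes was not tested.

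By the 12 log2 differences of the treated cultures from the CON culture of their number, each gene was set against 13136 others. RIPK1 had the closest matches, MFN2 and AVEN, each with a root mean square difference of 0.05. CASP4 lay nearest to CALCOCO2 (0.10) and ANXA1 (0.15), CASP8 to NIPA2 and DNAJA1 (0.11 each), CFLAR to PRRC2C and USP37 (0.12 each), and FADD to FUK (0.12) and RHBDD3 (0.13). FAS lay nearest to CCDC82 (0.18) and AIDA (0.21), and MLKL to WARS (0.20) and CDADC1 (0.23). TNFSF10 had the largest distances, 0.63 each to PARP12 and IFI16. The log2 changes of these 2 genes for IFNT against CON were 4.06 and 3.91, against 4.18 for TNFSF10. Distances are in log2 units and are not scaled to the size or scatter of a gene's change. These distances describe likeness over 12 cultures that share their 4 CON cultures, and carry no test.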

How the data were processed

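RNA was measured in 16 libraries, 4 per group. Tools listed, per the submitters' processing notes, were RSEM 1.2.8, Bowtie2 2.2.5, HISAT2 2.0.4 and DESeq2, with neither order nor settings. Genome build, annotation and strand use were not given in the sources used here. The deposited values are a signal per gene: counts divided by 1 size factor per library, as the values themselves showed, since 100% came out as whole reads to within 0.01 of a read. The authors' deposited tables also give log2 fold changes with standard errors, a test statistic (score), p-values and adjusted p-values.

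The values were analysed as log2(normalized count + 0.5) with limma 3.58.1 (intensity trend, R 4.3.3), 1 mean per group over all 16 libraries and no block. Testing was limited to the 14122 genes that reached a normalized count of 10 in 4 or more libraries, with Benjamini-Hochberg adjustment and a threshold of 0.05; the pseudocount shrinks changes of low genes. edgeR 4.0.16 and DESeq2 1.42.0 were run on the recovered reads as alternatives, beside other pseudocounts, filters, scalings, a replicate block and omission of each number. IDs were matched to RefSeq (ARS-UCD2.0) for names: 17768 matched and 937 did not.

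The numbers were taken to pair the cultures: deviations from group means correlated at 0.352 to 0.719 in the 24 same-number pairs and at -0.52 to 0.0402 in the 72 others. This comes from the data, not from the labels. The genes, the pathway and marker lists and the tests were chosen with earlier results of these data known. From each list, up to 4 genes past the threshold in each direction could be named, by adjusted p, and for each of the 8 genes the 2 nearest patterns. A further pathway list is not reported here. The ratio of CFLAR to CASP8 carries no test. Reads carry no molecular identifiers, and genes sharing reads with near copies are uncertain.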

Additional observations from a re-analysis of the deposited data

Results flagged for a closer look

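In 2 of the 32 sets of 4 cultures, 8 genes in 4 groups, 1 culture lay so far from the other 3 that its gap to the nearest, over the range, passed Dixon's 95% critical value; chance marks about 1 in 20 such sets. FAS in IFNT culture 4 had a normalized count of 622.7, with a gap of 0.851 of the range. CFLAR in CON culture 4 had 574.4, with a gap of 0.878 of the range. Both were the lowest of their groups.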

How the results depend on the processing

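The replicate block, with the sample number as a term, moved the counts of called genes more than any other setting run on all 16 libraries: to 6140 for IFNT against CON (3384 without it), 5696 for IFNT+PGF2A against PGF2A (2948), 5837 for IFNT+PGF2A against CON (3127), 23 for PGF2A against CON (0) and 99 for IFNT+PGF2A against IFNT (1). Of the 8 genes it changed the call of CFLAR for IFNT against CON and of FADD for IFNT+PGF2A against CON, and no other. The block without number 4, a setting chosen after seeing the data, called 7889, 7575, 7597, 96 and 333 in the same order. Leaving out each number in turn gave 1801 to 4201, 1468 to 3678, 1629 to 3831, 0 to 0 and 0 to 0. The fit of only the groups compared called 2118 for IFNT against CON. For PGF2A against CON 2 genes were called without the filter and 2 by DESeq2, which called 9 for IFNT+PGF2A against IFNT. Leaving out each number, some signs that never passed the test turned. For PGF2A against CON the ranges were -0.08 to 0.29 for TNFSF10, -0.10 to 0.04 for CASP4 and -0.05 to 0.01 for RIPK1, and with the block and without number 4 the changes were -0.08, 0.01 and 0.01. For IFNT+PGF2A against IFNT they were -0.10 to 0.33 for TNFSF10 and -0.05 to 0.05 for CASP4 (-0.10 and -0.05 with the block and without number 4). For the interaction they were -0.01 to 0.14 for TNFSF10, -0.21 to 0.15 for FADD, -0.05 to 0.15 for CASP4 and -0.12 to 0.13 for MLKL (-0.01, 0.15 and -0.05 for the first 3 with the block and without number 4). TNFSF10, FAS, CASP8, RIPK1, MLKL and CASP4 kept their call and direction in all settings run for both IFNT comparisons and for IFNT+PGF2A against CON. TMM scaling moved a library by at most 0.0241 on the log2 scale. Fitting only the groups compared cannot be applied to the interaction. The cause of these shifts was not tested.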
